A study of Mus musculus with 12 samples.

Results

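The response of wild-type mouse embryonic fibroblasts (MEFs) to tumor necrosis factor (TNF-α) was followed over 24 h on Illumina whole genome mouse bead arrays. It comprised the 4 arrays labelled wild-type out of 12 in the series. Cells were sampled before treatment (0 h) and after 1.5, 6 or 24 h in 20 ng/mL of the cytokine. The others carried *Sirt6−/−* and *Sirt6−/−RelA−/−* cells at the same times, and are used here only for comparison. All MEFs came from 13.5-day embryos, littermates per the methods, and were grown in medium with 15% fetal bovine serum. They were passaged 4 times before treatment. Genes were kept if the processed intensity reached 100 on any of the 4 wild-type arrays, and the brightest probe represented each gene. This left 5777 of 16593 genes. Just inside the limit were *Sgta* and *Lnx2*, with a highest intensity of 100.04, and just outside *Rnf26* and *Gstcd*, with 99.96 and 99.94.

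TNF-α binds its receptor and activates the IκB kinase complex, which marks the inhibitor IκBα for destruction and frees NF-κB dimers such as those holding RelA to enter the nucleus. NF-κB then drives genes for chemokines, adhesion molecules and survival factors, and also genes for its own inhibitors, which close a feedback loop. Fibroblasts treated with this cytokine are known for secreting chemokines that attract leukocytes and proteases that cut the extracellular matrix. *Sirt6* encodes a histone deacetylase found at chromatin, and *Rela* encodes the RelA subunit.

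Each condition had 1 array, so a difference at a single time has no test. The steady response is the mean of the 1.5, 6 and 24 h arrays minus the 0 h array on the log2 scale. It was tested with limma, and a gene is called if its p-value adjusted by the Benjamini-Hochberg method was under 0.05. The standard error (SE) rests on the spread of arrays under TNF-α within each genotype. It therefore holds the change between 1.5 and 24 h, and no spread between embryos or between untreated cultures. Calls are from this fit unless an alternative is named. An alternative chosen after the data were seen adds a term for time under TNF-α that the 3 genotypes share. All differences use the same 0 h array. In total RNA of a culture, fewer cells of a type and less RNA per cell cannot be told apart.

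The 0 h array stood apart from the rest. Its mean correlation across genes with the other wild-type arrays was 0.963, against 0.980 to 0.991 for the own-genotype mean of the other 11 arrays. It correlated as well with the 6 h *Sirt6−/−RelA−/−* array (r = 0.966). In 7 genes it lay at least 2-fold below all 11 others, namely *Ddx6*, *Dpysl3*, *Pdpk1*, *Prf1*, *Ttll1*, *Ttyh2* and *Zbtb7a*, while only 1 gene did so on any other array. The TNF-α response cannot be computed without this array, and its part in the results was not tested. For this reason the *Sirt6−/−* response, which has a 0 h array of its own, and the differences between TNF-α times, which need no 0 h array, are given beside the main values. Fibroblast markers were bright on all 4 arrays, with a summed intensity of 34389 to 41937 over 13 genes. Of 17 macrophage and blood cell markers 6 reached 100, and 3 of the 6 were called higher (against 9.9% of all genes tested). The sum over the 17 was 1724 at 0 h and 2593 to 2802 under TNF-α. The 3 were *Cd14* (136 at 0 h, 224 to 302 under TNF-α), *Lyz2* (637 and 1232 to 1513) and *Cd52* (59.3 and 101 to 118). *Cd52* reached 100 only under TNF-α and could be called higher only. *Lyz2* lost its call under 8 of 14 alternatives, each fit without a TNF-α array included. *Adgre1* (0.36), *Laptm5* (0.09) and *C1qb* (-0.16) were not called. After quantile normalization, or after centring each array on its median, 2 of the 6 were called higher. The leukocyte markers *Ptprc* and *Itgam* were at most 13.6 on every wild-type array. In *Sirt6−/−* cells the sum was 441 to 768 for the macrophage and blood cell markers and 27286 to 34529 for the fibroblast markers. Skeletal muscle markers (16 genes) summed to 2806 to 4138 in wild-type and 9907 to 11763 in *Sirt6−/−* cells. In wild-type cells *Acta1* made up most of this sum, at 2607 to 3879. The compared cultures thus differed in these sums as well as in *Sirt6*. The part of macrophage, blood or muscle cells in the results was not tested. *Sirt6* was under 100 in every sample, at 37.6 to 44.2 in wild-type and at most 12 in *Sirt6*-deficient cells. *Rela* was at 674 to 1303 in wild-type and 173 to 187 in *Sirt6−/−RelA−/−* cells.

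In the steady response 572 genes (9.9% of those tested) were called higher and 292 (5.05%) lower. Of these, 99 were higher and 23 lower by at least 2-fold. The 10 largest rises were those of the chemokines *Ccl5*, *Ccl2*, *Cxcl1*, *Cxcl5* and *Cxcl16*, the adhesion molecule *Icam1*, the survival factor *Birc3*, the NF-κB inhibitor *Nfkbia*, and *Zbtb7a* and *Prnd*. On the 1.5 h array 153 genes (2.65%) were at least 2-fold higher than at 0 h and 24 (0.415%) at least 2-fold lower. At 6 h the counts were 116 (2.01%) and 31 (0.537%), and at 24 h 117 (2.03%) and 54 (0.935%). The median of all genes was shifted upward by 0.13 on the log2 scale at 1.5 h, by 0.04 at 6 h and by 0.05 at 24 h. Higher genes made up 66.2% of the calls, 51.6% after quantile normalization (497 higher and 466 lower) and 47.9% after centring each array on its median (385 and 418). The excess of rises over falls thus depended on the scaling. Of the genes tested, 337 reached 100 only under TNF-α and 127 only at 0 h, and such genes could be called in a single direction only. Among the 10 largest rises, *Ccl5*, *Cxcl16*, *Icam1*, *Birc3*, *Zbtb7a* and *Prnd* reached 100 only under TNF-α.

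**Figure D1:**
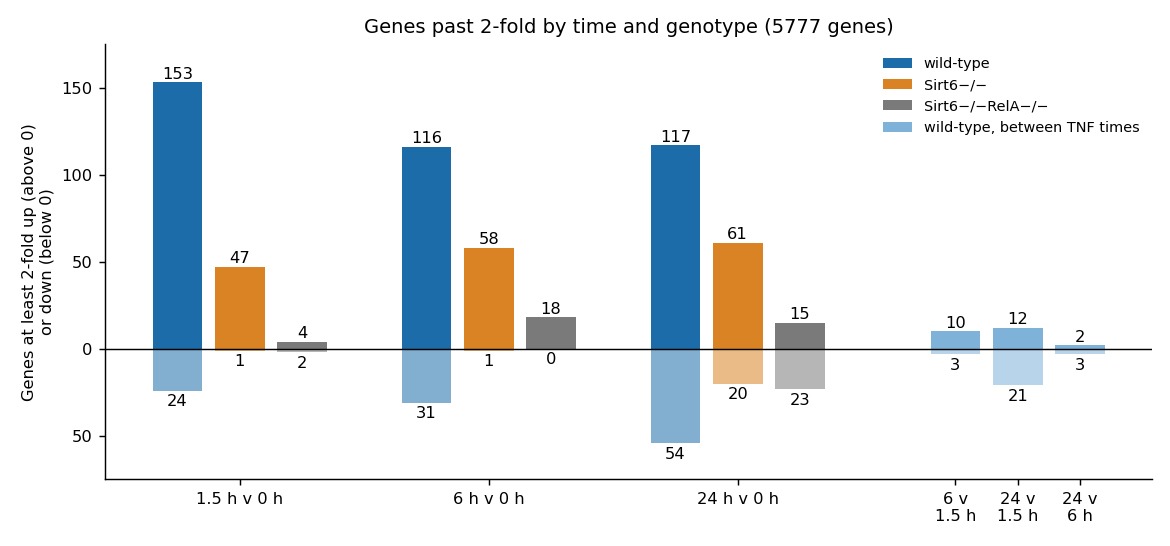
Number of genes at least 2-fold higher (bars above 0) or lower (bars below 0) than the 0 h array of the same genotype, of 5777, and between TNF-α times in wild-type cells (right). The wild-type bars, at 153, 116 and 117 genes higher, stand above those of *Sirt6−/−* cells at 47, 58 and 61, while at most 12 genes were higher between any TNF-α times. The 5777 genes were chosen on the wild-type arrays only.

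Of the NF-κB circuit, 3 of 4 subunit genes and 7 of 11 feedback inhibitors on the array were measured. The 3 subunit genes *Rela*, *Relb* and *Nfkb2* and 4 of the 7 inhibitors were called higher, and 0 lower (background 9.9% and 5.05%). *Relb*, *Nfkbie* and *Tnfaip3* reached 100 only under TNF-α, so these counts are in part set by the filter. *Nfkbia*, which encodes IκBα, had intensities of 258 at 0 h, 1221 at 1.5 h, 1332 at 6 h and 1114 at 24 h. The 3 treated arrays lay close to each other and well above the untreated array, a steady rise of 4.73-fold (2.24 on the log2 scale, SE 0.26, adjusted p = 0.00147 from limma). *Tnfaip3*, which encodes the ubiquitin-editing inhibitor A20, went from 89.1 to 287, 223 and 209.7 (1.41, SE 0.21, adjusted p = 0.00347). *Nfkbie*, encoding another IκB, went from 43.3 to 189, 116 and 116. *Tnip1*, whose product binds A20, increased less (0.82, adjusted p = 0.0310) and was highest at 24 h. The remaining inhibitor genes *Nfkbiz*, *Cyld* and *Otud7b* had steady values of -0.02, -0.01 and -0.18 and were not called. Among the subunits, *Relb* was at 64.5, 192, 181 and 169 (1.48, adjusted p = 0.00532) and *Nfkb2*, encoding the precursor that pairs with RelB, at 118, 249.9, 343 and 277 (1.28, adjusted p = 0.00472). *Rela* itself was at 674, 1246, 1303 and 1221, a rise of 0.90 (SE 0.14, adjusted p = 0.00418). In *Sirt6−/−* cells the rise of *Rela* at the 3 times was 0.49, 0.50 and 0.29. Among 7 measured genes of TNF receptor signaling 1, *Birc3*, was called higher and 0 lower, a share near the background of 9.9%, and *Birc3* reached 100 only under TNF-α. The receptor gene *Tnfrsf1a* was at 118 before treatment and 85.7 to 94.7 after (-0.40, adjusted p = 0.467), and the kinase subunits *Ikbkb* (-0.38) and *Ikbkg* (-0.39) were not called either. *Birc3*, an inhibitor of apoptosis that acts at the receptor complex, rose from 25.3 to 156, 155 and 114 (2.47, SE 0.26, adjusted p = 0.000957).

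**Figure D2:**
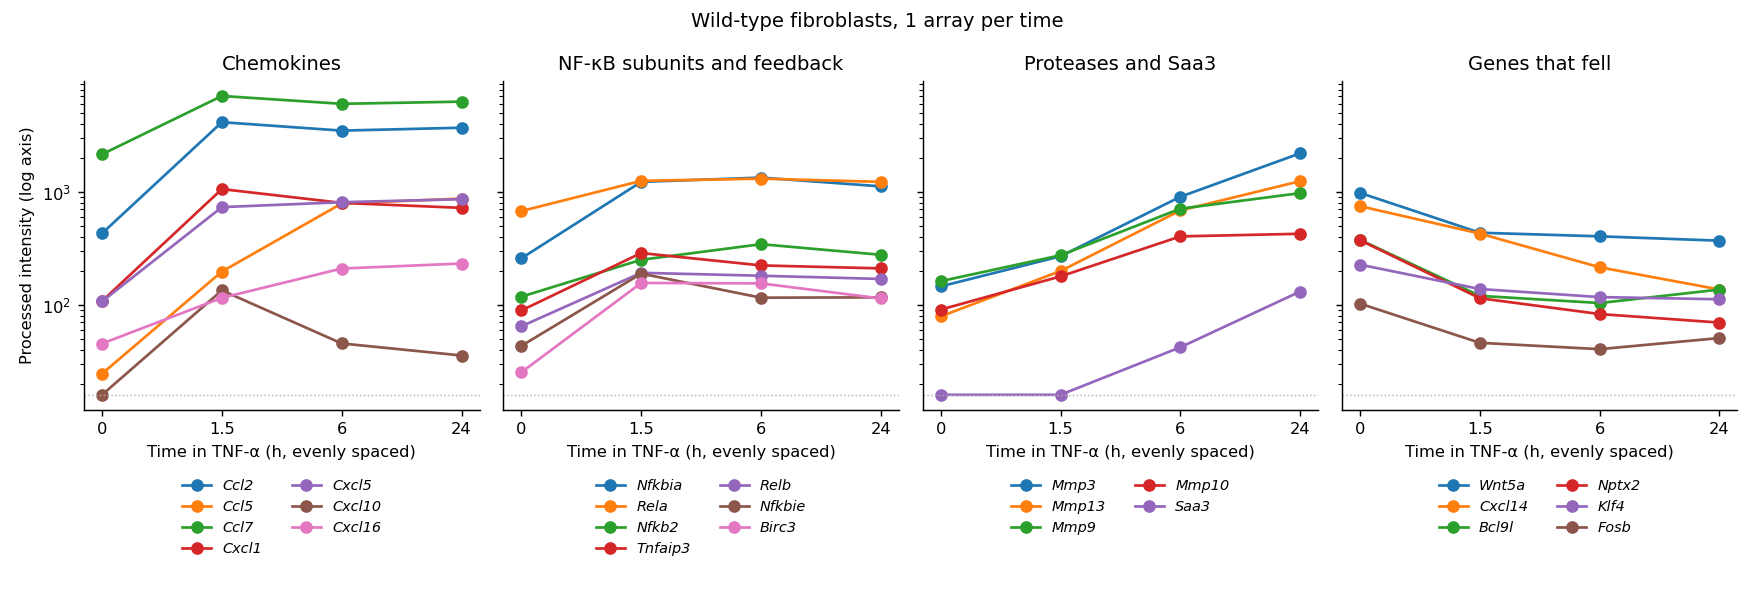
Processed intensity (log axis) of named genes on the wild-type arrays at 0, 1.5, 6 and 24 h, with 1 point per array and values under 16 drawn at 16 (dotted line). Chemokine and NF-κB genes were high by 1.5 h, the *Mmp* genes and *Saa3* were highest at 24 h, and *Wnt5a*, *Cxcl14*, *Bcl9l*, *Nptx2*, *Klf4* and *Fosb* were lower on all 3 treated arrays.

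To show the sequences that lie upstream of the induced genes, RefSeq promoters (build GRCm38.p6, 250 bases before to 50 after the start site) were searched on both strands for the κB motif GGGANNTTCC. Of the 153 genes at least 2-fold higher at 1.5 h, 120 had a promoter in the table, and 8 of them held the motif (6.67%), against 1.63% of 27025 genes with any promoter and 1.53% of 4780 tested genes. The same share among genes 2-fold higher at 24 h was 6.67% (6 of 90). Of these 8 genes, the 4 with the largest difference at 1.5 h are printed below, from 200 bases upstream to the base before the start site, 5′ to 3′ on the gene's strand, with the motif in capitals. They are *Cxcl1* (chr5:90891045-90891244, plus strand), *Cxcl10* (chr5:92348890-92349089, minus strand), *Nfkbia* (chr12:55492648-55492847, minus strand) and *Csf1* (chr3:107760470-107760669, minus strand).
Cxcl1: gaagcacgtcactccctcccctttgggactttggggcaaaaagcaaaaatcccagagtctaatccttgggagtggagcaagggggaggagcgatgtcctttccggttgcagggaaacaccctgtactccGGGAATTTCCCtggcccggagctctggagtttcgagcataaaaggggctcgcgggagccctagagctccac
Cxcl10: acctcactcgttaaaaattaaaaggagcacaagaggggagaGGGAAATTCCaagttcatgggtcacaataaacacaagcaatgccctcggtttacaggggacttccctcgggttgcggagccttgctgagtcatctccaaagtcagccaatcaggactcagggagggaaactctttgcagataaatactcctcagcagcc
Nfkbia: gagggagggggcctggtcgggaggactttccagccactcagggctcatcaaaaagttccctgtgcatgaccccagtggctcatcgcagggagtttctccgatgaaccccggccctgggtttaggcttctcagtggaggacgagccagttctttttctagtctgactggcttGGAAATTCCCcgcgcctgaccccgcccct
Csf1: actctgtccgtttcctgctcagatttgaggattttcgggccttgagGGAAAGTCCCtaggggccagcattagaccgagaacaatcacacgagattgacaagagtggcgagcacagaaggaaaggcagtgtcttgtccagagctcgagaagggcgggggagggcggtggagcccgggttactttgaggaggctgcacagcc
The motif began at -70 in *Cxcl1*, where an overlapping match starts 1 base further upstream, and at -159 in *Cxcl10*, -29 in *Nfkbia* and -154 in *Csf1*. *Icam1*, *Birc3* and *Mmp13* were not among the 8 genes with a match, and *Ccl2*, *Ccl5*, *Ccl7*, *Cxcl5* and *Relb* had no window. A match is a description of these letters only.

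Chemokines, the secreted proteins that recruit leukocytes, had the highest medians of the lists counted. Of 10 measured members 6 were called higher (background 9.9%) and 0 lower (5.05%), and 9 of 10 were at least 2-fold higher at some time. *Ccl5*, *Ccl9*, *Cxcl10* and *Cxcl16* reached 100 only under TNF-α, and *Cxcl14*, a chemokine called lower, was not on the list. *Ccl2*, which attracts monocytes, was at 428 before TNF-α and at 4114, 3465 and 3676 after 1.5, 6 and 24 h. All 3 treated arrays stood far above the untreated array, and the rise was 8.74-fold (3.13, SE 0.24, adjusted p = 8.23e-05). *Ccl7*, its neighbour on chromosome 11, started from 2141 and was at 7016, 5980 and 6251 (1.58, SE 0.22, adjusted p = 0.00330). *Cxcl1*, a neutrophil attractant, was highest at 1.5 h, with 108, 1054, 796 and 719 in order of time (2.97, SE 0.39, adjusted p = 0.00206), and *Cxcl5* was at 107, 730.3, 807 and 858. *Ccl5* had the largest rise of all genes tested and a different course. It went from 24.6 to 197 at 1.5 h and 787 at 6 h, and stayed at 869 at 24 h (4.38, SE 0.87, adjusted p = 0.0108). *Cxcl16* (45.4, 115, 209 and 232) also kept climbing after 1.5 h. *Cxcl10*, a ligand of the receptor on activated T cells, was highest at 1.5 h, with 134, and at 45.5 and 35.6 later. It was at 5.4, under the floor of 16, at 0 h, so its differences of 3.07, 1.51 and 1.15 are lower bounds, and its steady value was not called (1.91, adjusted p = 0.0918, or 0.0345 with a time term shared by the genotypes). The membrane-bound *Cx3cl1* was at 190 before, 406 and 410.2 at 1.5 and 6 h, and 215 at 24 h. *Cxcl12*, a chemokine that fibroblasts make without stimulation, had a steady difference of 0.03 (SE 0.21, adjusted p = 0.931). The chemokine list kept 6 calls under quantile normalization and under median centring, and the calls of *Cxcl5*, *Ccl5* and *Cxcl16* were lost when no filter was set (adjusted p = 0.0855, 0.132 and 0.252). *Cxcl16* lost its call under 4 of 14 alternatives, among them the fits without the 6 h or the 24 h array.

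Other secreted factors and receptors for immune cells were counted in 3 further lists. *Csf1*, the growth factor of macrophages, went from 399 to 1357, 965 and 975 (1.44, SE 0.25, adjusted p = 0.00610) and was the 1 member called higher among 8 measured cytokine and growth factor genes, a share near the background of 9.9%. *Lif* and *Tslp* had steady differences of 1.03 and 0.95 (adjusted p = 0.165 and 0.0596). *Il6* did not reach 100, with 9.1 at 0 h and 53.3 at 1.5 h. Of 9 measured adhesion molecules and surface receptors, 6 were called higher and 0 lower (background 9.9% and 5.05%), and 3 of the 6, *Icam1*, *Cd40* and *Tlr2*, reached 100 only under TNF-α. *Icam1*, the endothelial and fibroblast ligand of leukocyte integrins, was at 42.3, 263, 229 and 148 (2.30, SE 0.30, adjusted p = 0.00206), and *Vcam1* at 757, 1560.4, 1369 and 1091 (0.81, adjusted p = 0.0211). Both were highest at 1.5 h and lower at 24 h. The death receptor gene *Fas* was at 108, 397, 231 and 237 (1.37, adjusted p = 0.00777). *Tlr2*, *Cd40* and *Ifngr2* were also called, with rises of 1.16, 1.26 and 0.78. *Cd40* lost its call under 7 of 14 alternatives. Among 7 measured genes of acute phase and secreted defence 2 were called higher (background 9.9%). *Ch25h*, which makes an antiviral oxysterol, was at 252, 628, 615 and 611 (1.29, adjusted p = 0.0142), and *Tnfaip2* at 162, 655, 380.2 and 408 (1.53, adjusted p = 0.0325). *Sod2*, the mitochondrial superoxide dismutase, had a steady difference of 0.43 (adjusted p = 0.0631). After median centring the adhesion and receptor list had 5 calls in place of 6, and the feedback inhibitors 3 in place of 4.

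**Figure D3:**
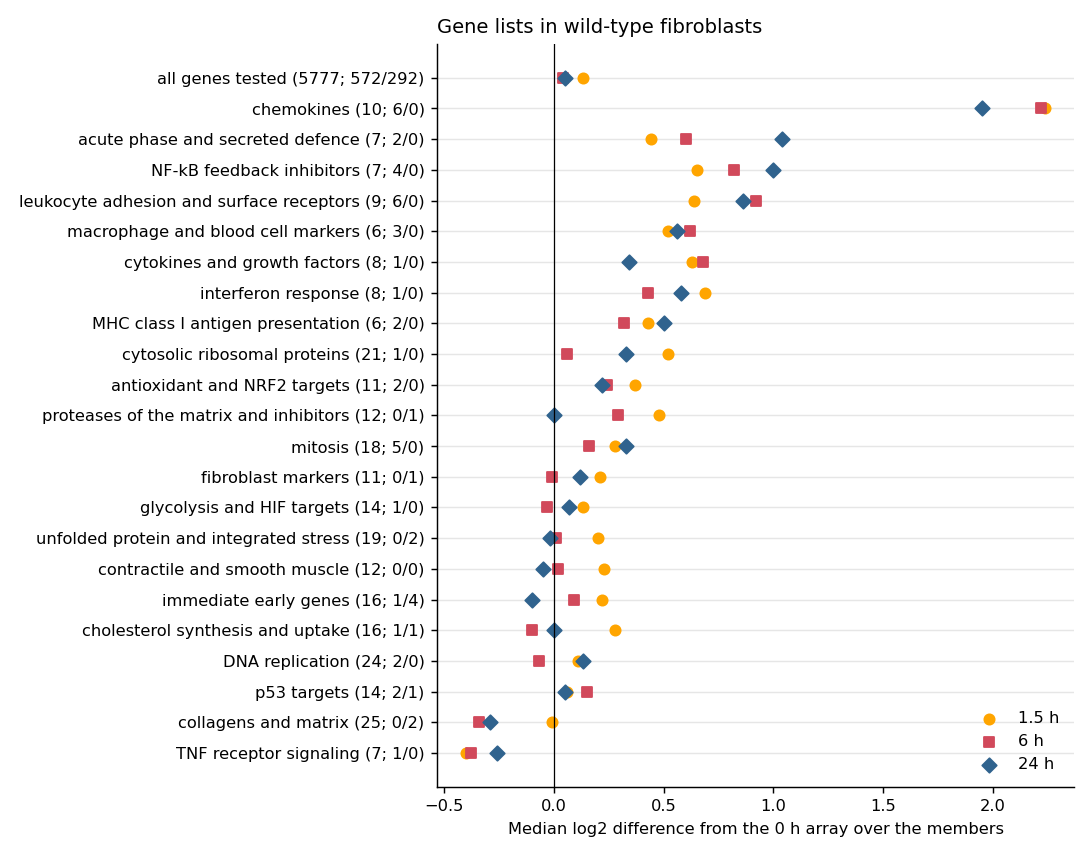
Median log2 difference from the 0 h array at 1.5, 6 and 24 h over the tested members of each gene list in wild-type cells, with the number tested and the numbers called higher and lower in brackets. Chemokines lie at 2.24, 2.22 and 1.95, collagens and matrix genes at -0.01, -0.34 and -0.29, and all genes tested at 0.13, 0.04 and 0.05.

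Interferon response and antigen presentation genes were mostly low or uncalled. Of 30 interferon response genes on the array 8 were measured, and 1, the GTPase gene *Ifi47*, was called higher (58.1, 114, 116 and 97.3), a share near the background of 9.9%. *Ifi47* and 4 others of the 8 reached 100 only under TNF-α. *Irf1*, a transcription factor gene and known NF-κB target, was at 440.4 before and 1457, 929 and 964 after TNF-α, at least 2-fold higher on each treated array, yet its steady value was not called (1.31, SE 0.47, adjusted p = 0.0775, or 0.00739 with a time term shared by the genotypes). *Mx1*, *Ifit1*, *Oas1a* and *Rsad2*, classical type I interferon targets, were at most 6.8 on every wild-type array. In the MHC class I pathway 6 of 17 genes on the array were measured. Of the 6, 2 were called higher and 0 lower (background 9.9% and 5.05%), with 1 called higher after quantile normalization or median centring. *Psmb10*, an immunoproteasome subunit, increased from 241 to 491, 562 and 495 (1.09, SE 0.19, adjusted p = 0.00613). *H2-T23* rose by 0.81 and was highest at 24 h, with a call that was lost under 7 of 14 alternatives. It reached 100 only under TNF-α and could be called higher only. *B2m* had a steady difference of -0.09.

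A second set of genes kept climbing under TNF-α. The 4 matrix protease genes of this set were already 0.76 to 1.33 above 0 h at 1.5 h. The stromelysin gene *Mmp3* was at 145 at 0 h, 268 at 1.5 h, 901 at 6 h and 2184 at 24 h. The collagenase gene *Mmp13* was at 78.9, 199, 682 and 1239, *Mmp9* at 162, 274, 707 and 971, and *Mmp10* at 90.6, 178, 402 and 424. In each of these 4 genes every later array was above the one before. Their steady differences of 1.78 to 2.80 were not called (adjusted p = 0.0897 to 0.236), and the climb between 1.5 and 24 h enters the spread of the fit. With a time term shared by the genotypes all 4 were called (adjusted p = 0.024 for *Mmp3*, 0.00175 for *Mmp13*, 0.000119 for *Mmp9* and 0.0119 for *Mmp10*). *Mmp9* and *Mmp10* have 1 probe each. Over their 3 probes the steady value was 1.52 for *Mmp13*, against 2.80 for its brightest probe, and 2.69 for *Mmp3*, against 2.48. The comparison of 24 h with 1.5 h, which does not use the 0 h array, gave 12 genes at least 2-fold higher and 21 lower. The higher genes included *Saa3* (3.03, with the 1.5 h value under the floor), *Mmp3* (3.02), *Mmp13* (2.64), *Ccl5* (2.14), *Mmp9* (1.83) and *Vegfc* (1.21), which encodes a lymphatic growth factor. *Saa3*, an acute phase protein gene, was at 12.1, 1.2, 42.1 and 131 in order of time. In *Sirt6−/−* cells the differences of *Mmp3* from the 0 h array were 1.13, 4.23 and 5.93, against 0.89, 2.63 and 3.91 in wild-type cells, and those of *Mmp13* were 0.90, 2.36 and 4.08 against 1.33, 3.11 and 3.97. Other matrix proteases did not share this course. *Mmp2* (-0.50) and *Mmp14* (0.15) were not called, and *Mmp11* was lower (-0.76, adjusted p = 0.0399), although it reached 100 only at 0 h.

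Few genes rose early and returned. By the counting rule of at least 1 on the log2 scale at 1.5 h and under 0.5 at 24 h, 7 genes belonged to this class, among them *Cx3cl1*, *Cish*, which encodes an inhibitor of cytokine receptor signaling, and *Noct*. Late rises (under 0.5 at 1.5 h and at least 1 at 24 h) comprised 5 genes and sustained rises (at least 1 at all 3 times) 62. *Mmp13* was among the sustained rises, and *Mmp3*, *Mmp9* and *Mmp10* met none of these rules. Among genes at least 2-fold lower at 24 h than at 1.5 h were *Cxcl10* (-1.91), *Nppb* (-1.91) and *Pdgfb* (-1.29). *Pdgfb*, a growth factor gene, was at 209, 880, 528 and 359.6 in order of time, with 166, 773, 681 and 358 in *Sirt6−/−* cells. *Mylk*, *Eln*, *Mgp* and *Des*, genes of contractile cells and elastic matrix, were also lower at 24 h than at 1.5 h, with differences of -1.58 to -1.14. None of the 4 was called in the steady response, although *Mylk* was with the time term (adjusted p = 0.0457). Between 6 and 24 h only 2 genes were at least 2-fold higher and 3 lower.

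Genes called lower were spread over many functions. *Nptx2*, a secreted pentraxin gene, had the largest fall, from 373 to 114, 82.8 and 69.6 (-2.10, SE 0.30, adjusted p = 0.00330). *Cxcl14*, a chemokine that differs from the rest in falling, went from 745 to 426, 215 and 136 (-1.68, SE 0.52, adjusted p = 0.0495), and lost its call under 5 of 14 alternatives. *Wnt5a*, a noncanonical Wnt ligand, was at 976 and then 434, 403 and 369 (-1.28, SE 0.15, adjusted p = 0.00147). *Bcl9l*, a cofactor of β-catenin, was at 375 and then 120, 104 and 136 (-1.65, adjusted p = 0.00147). In each of these 4 genes the 3 treated arrays lay below the untreated array. *Nptx2* has 1 probe. Over all their probes the falls of the others were smaller, at -0.86 for *Cxcl14*, -0.73 for *Wnt5a* and -0.74 for *Bcl9l*. *Cxcl14* and *Bcl9l* then lost their calls (adjusted p = 0.347 and 0.0626 from limma), and *Wnt5a* kept its call (adjusted p = 0.0171). *Card10*, *Vegfd*, *Selenow*, *Adamts5*, *Cic* and *Mtus1* completed the 10 largest falls, with values of -1.17 to -1.34. *Card10*, *Vegfd*, *Adamts5* and *Cic* reached 100 only at 0 h, so they could be called lower only. *Vegfd* and *Cic* lost their calls when no filter was set. Over all probes *Card10* was at -0.67 and *Mtus1* at -0.40, both still called. Among 25 measured collagens and matrix genes 0 were called higher and 2 lower (background 5.05%). *Col1a1*, the main fibrillar collagen chain, went from 8355 to 4733, 4211 and 4179 (-0.94, SE 0.25, adjusted p = 0.0324) and *Col6a1* from 5159 to 3989, 3300 and 2989.5 (-0.60, adjusted p = 0.0452). *Col6a1* lost its call under 6 of 14 alternatives and was at -0.25 over all probes, and *Col1a1* lost its call under 4. *Col1a2* and *Col3a1*, which encode fibrillar chains as well, had values of 0.40 and 0.33 and were not called. The number of matrix genes called lower was 5 after quantile normalization and 4 after median centring.

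Of 16 measured immediate early genes, 4 were called lower (background 5.05%) and 1 higher (9.9%). *Fos* and *Fosb* reached 100 only at 0 h and could be called lower only. *Klf2* (290 at 0 h and 131 to 155 under TNF-α, -1.02), *Klf4* (226 and 112 to 138, -0.90), *Fos* (146 and 73.1 to 94.2, -0.81) and *Fosb* (102 and 40.5 to 50.8, -1.17) encode transcription factors induced by serum or stress. Over its 3 probes *Klf4* was at -0.50 and lost its call (adjusted p = 0.0891 from limma). *Ier3*, an NF-κB target that limits apoptosis, rose from 1371 to 3061, 2911 and 2795 (1.09, SE 0.22, adjusted p = 0.0107). In *Sirt6−/−* cells *Fos* had differences of -0.21, -0.50 and -0.55, *Klf2* of -0.16, 0.13 and -0.71, *Fosb* of 0.18, 0.13 and -0.40, and *Klf4* of 0.10, 0.34 and 0.43. Of 18 measured mitosis genes 5 were called higher and 0 lower (background 9.9% and 5.05%), namely *Ccna2* (1.31), *Kif22* (0.68), *Plk1* (0.61), *Cdc20* (0.54) and *Cdca3* (0.54), with 3 called after quantile normalization and 1 after median centring. *Ccna2*, cyclin A2, was at 108 on the 0 h array and at 262, 260.3 and 277 on the treated arrays, and its differences in *Sirt6−/−* cells were -0.29, -0.29 and 0.02. Other mitosis genes such as *Cdk1* (-0.14) and *Top2a* (-0.09) were not called.

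The wild-type calls were then set beside the response of *Sirt6−/−* cells. In *Sirt6−/−* cells 23 genes were called higher and 0 lower in the same limma fit. Of the 23, 21 were also called higher in wild-type cells, against 9.9% of all genes tested. In *Sirt6−/−RelA−/−* cells 0 genes were called (186 at an unadjusted p under 0.05). Of the 62 genes with sustained rises in wild-type cells, 22 met the same rule in *Sirt6−/−* cells. They comprised 8 chemokines (*Ccl2*, *Ccl5*, *Ccl7*, *Ccl9*, *Cxcl1*, *Cxcl5*, *Cxcl10* and *Cxcl16*), 5 genes of the NF-κB circuit (*Nfkbia*, *Nfkbie*, *Tnfaip3*, *Relb* and *Nfkb2*) and *Birc3*, *Icam1*, *Csf1*, *Irf1*, *Ch25h*, *Prnd*, *Arhgef3*, *Rrad* and *Rgs16*. Their median steady difference was 1.69 in wild-type, 2.29 in *Sirt6−/−* and 0.62 in *Sirt6−/−RelA−/−* cells. The rule requires a rise in wild-type and *Sirt6−/−* cells and sets no condition on *Sirt6−/−RelA−/−* cells. The medians are therefore not on equal terms, and a part of RelA in them was not tested. Of genes at least 2-fold higher at 1.5 h in wild-type cells, 38 were so in *Sirt6−/−* cells, which is 24.8% of the wild-type and 80.9% of the *Sirt6−/−* list. At 6 h it was 43 (37.1% and 74.1%) and at 24 h 37 (31.6% and 60.7%). Of all 5777 genes tested, 47, 58 and 61 were at least 2-fold higher in *Sirt6−/−* cells at these times. The tested genes were chosen on the wild-type arrays only, which leaves out genes bright only in *Sirt6−/−* cells. The shares of the *Sirt6−/−* list may be too high for this reason, which was not tested.

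**Figure D4:**
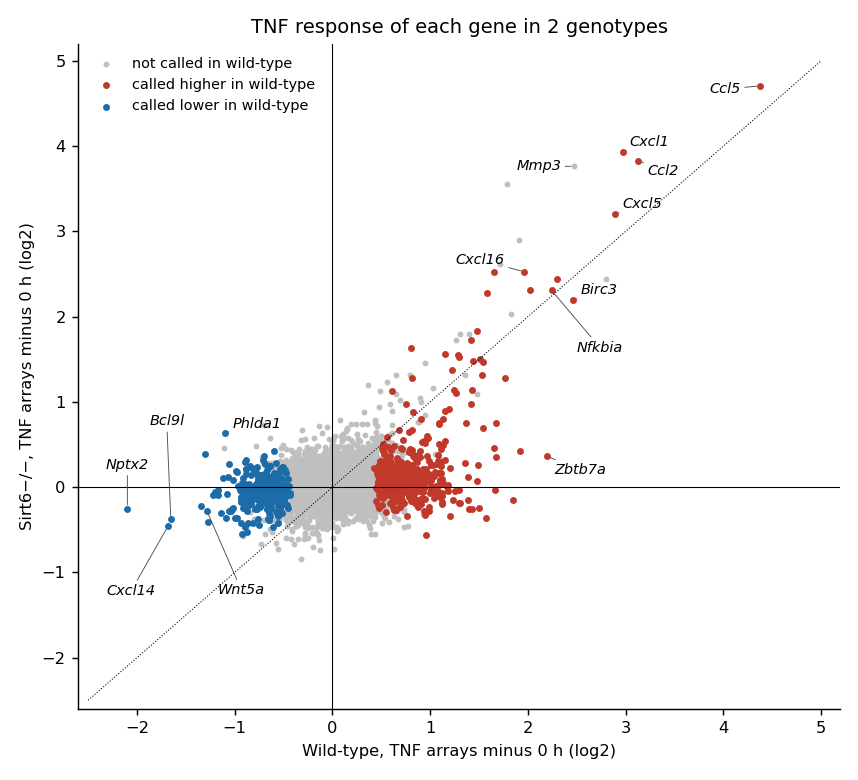
Steady TNF-α response of each of 5777 genes in wild-type cells (horizontal axis, log2) and *Sirt6−/−* cells (vertical axis, log2), each against its own 0 h array. The dotted line marks equal values, and colours mark the 572 genes called higher and 292 called lower in wild-type cells. The labelled chemokines, *Nfkbia* and *Birc3* lie close to or above the line, while most other called genes, including nearly all falls, lie near 0 in *Sirt6−/−* cells.

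Most other wild-type calls had small values in *Sirt6−/−* cells. Of the 572 genes called higher, 53 (9.27%) had a value of at least 0.5 in *Sirt6−/−* cells, against 2.37% of all genes tested, and the median was 0.70 in wild-type, 0.08 in *Sirt6−/−* and -0.08 in *Sirt6−/−RelA−/−* cells. Of the 292 called lower, 2 (0.685%) reached -0.5 in *Sirt6−/−* cells, against 0.554% of all genes tested, with medians of -0.68, -0.04 and 0.02. The 0 h array was the lowest of all 12 arrays in 433 of the genes called higher and the highest in 221 of those called lower. Over all 5777 genes it was the lowest in 1520 and the highest in 826. The call itself favours such genes, so these counts are a description. *Zbtb7a*, a transcriptional repressor gene, was at 46.6 at 0 h and at 219, 172 and 260 under TNF-α (2.20, SE 0.28, adjusted p = 0.00204), but at 200 to 359 on all *Sirt6−/−* arrays. *Ddx6*, an RNA helicase gene, was at 129, 408, 391 and 627 in wild-type cells (1.85) and at 400 to 548 in *Sirt6−/−* cells (-0.15). *Pdpk1*, which encodes a kinase of the AKT pathway, was at 59.0, 179, 190.0 and 194 (1.67) and at 200 to 255 in *Sirt6−/−* cells. These 3 are among the 7 genes in which the 0 h wild-type array lay at least 2-fold below all others. Their 0 h value is therefore below every *Sirt6−/−* value by that choice. The treated wild-type values were close to the *Sirt6−/−* values or among them. The difference of the steady response between wild-type and *Sirt6−/−* cells was called for 0 genes (0%) by limma, with 909 at an unadjusted p under 0.05. With the time term it was called for 40 genes, 27 with the higher value in wild-type cells and 13 with the lower, and the wild-type 0 h array was the lowest of all 12 in 19 of the 40 and the highest in 12. The part of that array in these calls was not tested. The 40 included *Ddx6*, *Pdpk1* (difference 1.70, adjusted p = 0.0228), *Ccna2* (1.49, adjusted p = 0.0403), *Wnt5a* and *Bcl9l* (-1.28, adjusted p = 0.0371). Of the largest falls, *Nptx2* had a steady value of -0.25 in *Sirt6−/−* cells, and the difference of -1.85 from wild-type was not called in the fit without the time term (SE 0.43, adjusted p = 0.133) and was called with it (adjusted p = 0.0403).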

How the data were processed

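The authors deposited processed intensities in linear units. Background had been subtracted, and the method used to scale arrays is not given in the sources used here. The labels name GenomeStudio without a version. Of 25697 probes, 23978 had a single gene symbol in the platform annotation and 1719 had none. The brightest probe by its mean over the wild-type arrays was taken for the 2293 tested genes with several. In wild-type cells 16.1% of probe values were negative and upper quartiles were 147 to 152. A floor of 16 was applied before the log2 transform. A second table of non-normalized signals was not used, because its 24 columns (12 of signals) could not be matched to samples by name.

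Arrays were grouped by genotype and by treatment (before or under TNF-α), and all 12 were fitted with limma 3.58.1 in R 4.3.3, with 6 residual degrees of freedom and an adjusted p threshold of 0.05. On simulated data for the wild-type comparison over 5777 genes the fit recovered 81% of changes of 1 log2 unit and 100% of changes of 2. The simulated 0 h array had the same noise as the treated arrays, drawn from the spread of the wild-type TNF-α arrays. The simulation therefore does not cover a 0 h array that stands apart, as the real one did. Precision is limited by having 1 array a condition. Tables and figures were made in Python 3.11.15 with pandas 2.3.3 and matplotlib 3.10.9.

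The gene lists and the comparison itself were chosen with earlier results of these data known. Named genes are the 10 largest steady changes each way among called genes of the same sign at all 3 times. The 10 largest differences each way at each time, up to 6 members of each list described and called genes that the study names were added. *Ddx6*, *Pdpk1* and other genes outside this rule were chosen after their values were seen. For the κB motif 3 spellings were searched, and GGGANNTTCC was kept after the matches were seen. The shares for GGGANTTTCC were 3.33% of genes 2-fold higher at 1.5 h and 0.466% of all genes, and for GGGNNNTTCC 14.2% and 6.31%. Alternatives covered a time term, the arrays in the fit, the filter, the floor, the scaling, the variance prior, the use of every probe and the fold that counts.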

Additional observations from a re-analysis of the deposited data

Results flagged for a closer look

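In 5 named genes all 3 wild-type differences from 0 h were negative and all 3 *Sirt6−/−* differences were positive. *Phlda1*, an apoptosis regulator gene, had a steady value of -1.10 in wild-type and 0.64 in *Sirt6−/−* cells, a difference of -1.74 (SE 0.37, adjusted p = 0.113 from limma). Its intensity was 1193 at 0 h and 455 to 636 under TNF-α in wild-type cells, and 559 at 0 h and 665 to 1023 under TNF-α in *Sirt6−/−* cells. *Impdh1*, of guanine nucleotide synthesis, was at -1.07 and 0.12 (difference -1.19, adjusted p = 0.0777), *Itga6*, an integrin subunit, at -1.06 and 0.27 (difference -1.32, adjusted p = 0.189), *Klf4* at -0.90 and 0.29 (difference -1.19, adjusted p = 0.113) and *Col6a1* at -0.60 and 0.13 (difference -0.73, adjusted p = 0.219). None of the 5 differences passed the threshold in this fit. With a time term shared by the genotypes, added after the data were seen, those of *Phlda1* (adjusted p = 0.0403) and *Impdh1* (adjusted p = 0.0381) did, and those of *Itga6*, *Klf4* and *Col6a1* did not (adjusted p = 0.0972, 0.0605 and 0.138). The 0 h wild-type array, which stood apart from the other arrays, enters each of them, and its part was not tested. *Phlda1* and *Itga6* have 1 probe. Over their 3 probes the steady wild-type value was -0.42 for *Impdh1*, -0.50 for *Klf4* and -0.25 for *Col6a1*. None of these was then called (adjusted p = 0.134, 0.0891 and 0.389 from limma).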

How the results depend on the processing

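The array titles give genotype and time and no replicate number, with 1 array a condition, so no paired analysis was made. The genotypes share their times, and a time term under TNF-α common to the 3 genotypes (4 residual degrees of freedom, chosen after the data were seen) gave 1331 steady calls (875 higher and 456 lower, all 572 and 292 among them) and 40 calls for the difference from *Sirt6−/−* cells. It left the steady values as they were and took the shared course out of the spread. Of 77 named genes 13 gained a call with it and 0 lost one. The steady calls (864, with 572 higher and 292 lower) fell to 574 with no filter, where 244 were higher. Leaving out each wild-type TNF-α array in turn gave 430 to 588 calls, with 356 higher and 232 lower without the 1.5 h array, 394 and 160 without the 6 h array, and 305 and 125 without the 24 h array. Calls lower numbered 186 with the 8 wild-type and *Sirt6−/−* arrays and 466 after quantile normalization. Of the called genes 492 higher and 292 lower kept their call under quantile normalization, and 385 and 292 under median centring. The difference from *Sirt6−/−* cells, with 0 genes called, gave 238 with no filter, 2 with an intensity trend, 1 with a mean of at least 100, and 0 to 1 without each wild-type TNF-α array. The cause of these shifts was not tested.

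Counts past a fold have no test and moved with the scale. Higher genes at 1.5, 6 and 24 h numbered 240, 193 and 189 with no filter, 71, 49 and 61 with an offset of 50, 775, 478 and 579 at 1.5-fold, and 28, 27 and 26 at 3-fold. Lower genes numbered 120, 196 and 204 with no filter, 6, 9 and 15 with an offset of 50, 274, 321 and 401 at 1.5-fold, and 2, 3 and 2 at 3-fold. They were 14, 14 and 31 with a filter of 200, 48, 56 and 84 after quantile normalization, 49 and 49 at 1.5 and 6 h after median centring, 14 at 1.5 h with the mean of all probes, and 20 at 6 h with a mean of at least 100. For 77 named genes, 893 of 1039 steady values under an alternative stayed on the same side of the threshold with the same sign, 129 lost the call, 17 gained it and 0 reversed.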
